A study of Mus musculus with 26 samples.

Results

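The comparison described here is between early 2-cell embryos that lack maternal KDM3A and KDM3B and control embryos of the same stage, neither of them injected. Its members are all genes with at least 1 TPM (a transcript's share of all transcripts on a fixed scale, a level that is corrected for transcript length) in at least 2 of the 4 libraries. The table lists 24412 genes, and 11140 of them met this rule. The embryos without the maternal proteins (mDKO) came from C57BL/6J females with the Zp3-Cre transgene and floxed alleles of both Kdm3a and Kdm3b. Wild-type sperm fertilised their oocytes in vitro, so each embryo carried intact paternal alleles of both genes. Zp3-Cre acts in growing oocytes, and the deletion is therefore one of the stored maternal product and the maternal allele. The genotype of the second group is given only as control, and which alleles or Cre it carried is not stated. Each group had 2 libraries, each made of polyA RNA from a pool of 12 to 20 embryos. The mDKO contrast was also measured in MII oocytes, in late 2-cell embryos (L2C) and in early 2-cell embryos (E2C) injected with mCherry, and these libraries serve for comparison.

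KDM3A and KDM3B are Jumonji demethylases that take methyl groups from mono- and dimethylated lysine 9 of histone H3, a mark found at silent chromatin. The early 2-cell embryo lives largely on RNA stored by the oocyte. In mouse it also makes its own first transcripts, in a minor wave of genome activation that precedes the major wave of the late 2-cell stage, and families such as Zscan4, Tcstv and Usp17l belong to this wave.

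Between 10432 and 11085 genes reached 1 TPM in a library, and the 100 most abundant genes held 44.0% to 46.6% of all TPM. Across genes, log2(TPM + 1) correlated at 0.985 between the control libraries, at 0.981 between the mDKO libraries and at 0.947 to 0.960 between libraries of different groups. The material carried RNA of its labelled stage: Zscan4f, a 2-cell gene, stood at 521 and 778 TPM in the controls and at no more than 0.134 TPM in control MII oocytes. Among genes at the edge of the rule, the second highest TPM was 1.0004 for C920006O11Rik, just inside, and 0.9985 for Clec1b, just outside. How deeply the libraries were sequenced cannot be read from TPM. MII libraries were made with another kit than E2C libraries, so stage and kit cannot be told apart where TPM of oocytes and embryos is compared. Since TPM has a fixed total, a rise of abundant genes pushes all others down. Each pool is bulk RNA, so fewer embryos with a transcript and less transcript per embryo cannot be told apart. The labels do not tie the pools to different females or days, and p-values may then measure technical spread alone.

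The targeted genes were low in the mDKO embryos, on top of low levels in the controls. Kdm3a had 2.59 and 2.07 TPM in the control libraries against 0.642 and 0.557 TPM in the mDKO libraries. It fell by 1.06 ± 0.26 on the log2(TPM + 1) scale (SE, n = 2 libraries per group, limma, adjusted p = 0.031). Both mDKO libraries lay below both controls, as in 31.3% of all genes. Without either control library Kdm3a no longer met the TPM rule and was not tested. Kdm3b, at 1.05 and 0.400 TPM in controls and 0.129 and 0.289 TPM in mDKO, missed the rule and was not tested. In MII oocytes Kdm3b had 26.6 and 24.97 TPM in controls and 1.75 and 1.87 TPM in mDKO, so the deletion was visible where the maternal transcript was abundant. Jmjd1c, the third member of the KDM3 family, had 2.68 and 2.34 TPM in controls and 3.42 and 2.80 TPM in mDKO, a difference of 0.23 ± 0.26 (limma, adjusted p = 0.61).

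Of the 11140 genes, 1001 were lower and 599 were higher in mDKO embryos (limma on log2(TPM + 1), adjusted p under 0.05), which is 8.99% and 5.38% of the genes tested and 14.4% in either direction. The lower genes changed more: 663 of them fell by at least 2-fold, 129 by at least 4-fold and 29 by at least 8-fold, against 273, 14 and 5 of the higher genes. The median over all genes was -0.01. The lower genes held 10.6% and 10.8% of all TPM in the controls and 6.18% and 6.54% in mDKO. The higher genes held 7.02% and 6.60% in controls and 11.8% in both mDKO libraries. In 3491 genes (31.3%) both mDKO libraries lay below both controls, and in 2896 genes (26.0%) both lay above. Of the lower genes, 180 met the TPM rule through the controls alone and had to be lower, and 37 of the higher genes met it through mDKO alone. Among genes that met it through both groups, 497 fell by at least 2-fold, 106 by at least 4-fold and 21 by at least 8-fold. The higher genes of that set numbered 239, 9 and 1. The 1001 lower genes form 991 distinct rows of values, since some near-identical gene copies carry the same TPM.

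These counts changed with the library that was left out, and the cause was not tested. Without control replicate 1, 213 genes were lower and 150 higher, and without control replicate 2 the counts were 186 and 96. Without mDKO replicate 1 they were 1488 and 825, and without mDKO replicate 2 they were 1591 and 1623. In these fits the lone library is assumed to vary like the other group. Called in all 4 of these fits were 154 of the lower and 66 of the higher genes. An exact permutation test of a single gene could not go below p = 0.333 with 2 libraries against 2.

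**Figure D1:**
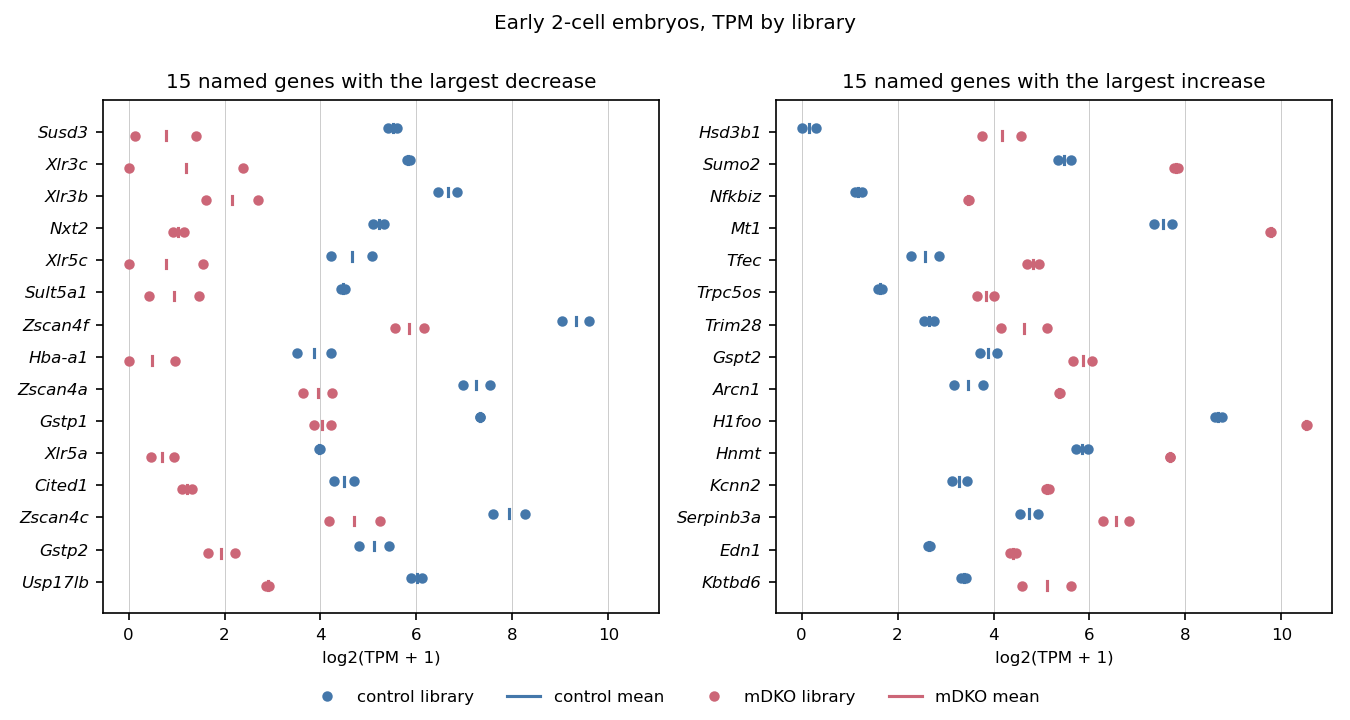
Level of 30 genes in each early 2-cell library, as log2(TPM + 1), for the 15 named genes with the largest decrease (left) and the largest increase (right) in mDKO. Points are libraries and short bars are group means (n = 2). The groups do not overlap in any of the 30 genes, which is largely built in, since the genes were chosen by their change. Both mDKO libraries lay below both controls in 31.3% of all genes and above them in 26.0%.

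The largest fall among named genes was that of Susd3, which encodes a sushi-domain membrane protein. Susd3 had 41.4 and 47.4 TPM in control libraries and 0.100 and 1.67 TPM in mDKO libraries, a fall of 4.72 ± 0.39 (limma, adjusted p = 0.00026). Its 2 groups were far apart, and it was just as low in oocytes, with 203 and 223 TPM in MII controls and 4.36 and 8.91 TPM in MII mDKO. Xlr3c and Xlr3b, X-linked genes of the family related to the synaptonemal complex protein SYCP3, came next. Xlr3c had 54.6 and 57.2 TPM in controls and 0 and 4.25 TPM in mDKO (-4.63 ± 0.62, adjusted p = 0.0026). Xlr3b had 114 and 86.6 TPM in controls and 5.50 and 2.08 TPM in mDKO (-4.49 ± 0.33, adjusted p = 0.00019). Xlr3b and Xlr3c are near-identical copies, so reads may have been split between them.

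Nxt2, an X-linked gene of the mRNA export family, had 33.3 and 39.3 TPM in controls and 1.21 and 0.910 TPM in mDKO (-4.18 ± 0.24). Sult5a1, a sulfotransferase gene, had 20.4 and 21.7 TPM against 1.78 and 0.351 TPM. The glutathione transferase genes Gstp1 and Gstp2 fell together. Gstp1 had 160 and 159 TPM in controls and 17.6 and 13.6 TPM in mDKO (-3.29 ± 0.18, adjusted p = 5.4e-05). Gstp2, its neighbour on chromosome 19, had 42.1 and 26.9 TPM against 2.13 and 3.67 TPM. Both were already low in mDKO oocytes, by -1.68 and -2.08. Cited1, which encodes a transcriptional coactivator and lies on the X chromosome, had 25.1 and 18.3 TPM in controls and 1.15 and 1.52 TPM in mDKO. Its MII level was under 1 TPM in all 4 oocyte libraries, so the transcript was far more abundant in control embryos than in oocytes. The other genes of this set were Xlr5c, Xlr5a, Zscan4f, Zscan4a, Zscan4c, Usp17lb and the alpha-globin gene Hba-a1. Each of the 15 was called in every fit that left out 1 library, except that Xlr5a and Hba-a1 no longer met the TPM rule without either control.

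The promoters of the 3 most reduced named genes, of the most increased named gene outside the small RNA entries and of Zscan4f are shown because these genes lie near the extremes of the comparison and its best known 2-cell target. Each runs from 250 bases before to 50 bases after the start that the RefSeq promoter table (GRCm38.p6) uses, 5′ to 3′ on the strand of the gene. For Susd3, Xlr3c and Xlr3b that start lies within the annotated gene and not at its outer end, and the Susd3 window lies wholly inside the gene. Capitals mark matches on either strand to TGATTNAAT, a part of the binding motif of the 2-cell factor DUX, to the homeobox core GGATTA, to the TATA box TATAAA and to the nuclear receptor half-site AGGTCA. Of 27025 promoters in the RefSeq table, 0.733% hold TGATTNAAT, 7.15% GGATTA, 14.2% TATAAA and 16.0% AGGTCA. Susd3 lies at chr13:49248245-49248544 on the minus strand, Xlr3c at chrX:73265341-73265640 on the minus strand, Xlr3b at chrX:73191929-73192228 on the plus strand, Hsd3b1 at chr3:98859745-98860044 on the minus strand and Zscan4f at chr7:11397665-11397964 on the plus strand.
Susd3: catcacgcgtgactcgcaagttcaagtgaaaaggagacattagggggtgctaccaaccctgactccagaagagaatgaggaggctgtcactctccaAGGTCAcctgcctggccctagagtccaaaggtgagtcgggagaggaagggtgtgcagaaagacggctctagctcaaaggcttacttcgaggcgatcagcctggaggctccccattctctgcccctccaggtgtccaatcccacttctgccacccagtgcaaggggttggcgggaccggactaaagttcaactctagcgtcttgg
Xlr3c: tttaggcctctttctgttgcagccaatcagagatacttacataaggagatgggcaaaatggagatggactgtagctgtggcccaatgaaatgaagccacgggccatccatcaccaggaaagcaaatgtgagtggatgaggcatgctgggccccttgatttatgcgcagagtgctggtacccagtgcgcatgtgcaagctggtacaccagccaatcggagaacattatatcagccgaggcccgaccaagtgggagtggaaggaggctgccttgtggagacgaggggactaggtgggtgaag
Xlr3b: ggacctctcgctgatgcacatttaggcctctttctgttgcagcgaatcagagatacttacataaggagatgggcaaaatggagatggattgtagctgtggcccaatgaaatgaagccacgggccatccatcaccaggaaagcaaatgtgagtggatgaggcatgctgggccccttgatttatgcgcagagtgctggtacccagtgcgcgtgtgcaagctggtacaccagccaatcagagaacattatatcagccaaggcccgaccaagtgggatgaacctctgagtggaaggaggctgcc
Hsd3b1: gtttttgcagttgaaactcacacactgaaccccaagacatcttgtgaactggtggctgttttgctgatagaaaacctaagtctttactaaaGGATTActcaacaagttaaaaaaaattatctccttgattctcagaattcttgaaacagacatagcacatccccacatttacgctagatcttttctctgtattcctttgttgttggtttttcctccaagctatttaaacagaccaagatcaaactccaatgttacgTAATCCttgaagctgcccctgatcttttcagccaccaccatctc
Zscan4f: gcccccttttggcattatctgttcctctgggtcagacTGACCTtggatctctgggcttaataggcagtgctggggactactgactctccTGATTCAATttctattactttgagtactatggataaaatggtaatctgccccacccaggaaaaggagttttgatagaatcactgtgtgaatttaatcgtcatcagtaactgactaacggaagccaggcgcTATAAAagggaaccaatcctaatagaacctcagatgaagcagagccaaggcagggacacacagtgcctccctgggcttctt
The Zscan4f promoter held TGATTNAAT, TATAAA and AGGTCA, and no other printed promoter held the first of these. Hsd3b1 held GGATTA once on each strand, Susd3 held AGGTCA, and the Xlr3b and Xlr3c windows held none of the 4 motifs. No comparison of motifs between the called sets is given: a promoter was found for 78.1% of the lower genes and 79.99% of all members, and with less than 80% of the lower set covered that check is void.

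Outside the small RNA entries, the largest increase among named genes was that of Hsd3b1, a steroid dehydrogenase of progesterone synthesis. Hsd3b1 had 0.227 and 0 TPM in controls and 12.5 and 22.9 TPM in mDKO (4.02 ± 0.33, adjusted p = 0.00025). It met the TPM rule through the mDKO libraries, so it could not be tested without either of them. In MII controls it had 5.36 and 22.6 TPM, so the mDKO embryos held a level within the range of the oocyte. Sumo2, which encodes the small modifier SUMO2, had 47.7 and 39.6 TPM in controls and 228 and 216 TPM in mDKO (2.32 ± 0.15, adjusted p = 0.00011). Its MII level was 957 and 971 TPM in controls, and both embryo groups were thus well below the oocyte.

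H1foo, the oocyte linker histone, had the same form at a higher level, with 389 and 435 TPM in controls and 1474 and 1456 TPM in mDKO (1.83 ± 0.11, adjusted p = 0.00011). The H1foo mean in MII controls was 15246 TPM. Trim28, the KAP1 corepressor of zinc finger repressors, had 5.76 and 4.87 TPM in controls and 33.5 and 16.9 TPM in mDKO (1.98 ± 0.32, adjusted p = 0.0057). Arcn1, a coatomer subunit, had 12.7 and 8.03 TPM against 39.998 and 40.9 TPM, below 565 and 566 TPM in MII controls. In TPM, and across different kits, these 3 genes were lower in embryos of either group than in oocytes, and less so in mDKO. Without control replicate 2 the call of Trim28 was lost (adjusted p = 0.053).

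A further set of increases had the same direction in mDKO oocytes. Mt1, a metallothionein, had 211 and 161 TPM in controls and 883 and 871 TPM in mDKO (2.25 ± 0.15, adjusted p = 0.00011), against at most 82.3 TPM in any MII library. Hnmt, histamine N-methyltransferase, had 61.5 and 52.0 TPM against 204 TPM in both mDKO libraries. Tfec, a transcription factor of the MiT family, had 6.33 and 3.83 TPM against 24.8 and 29.6 TPM. In MII oocytes their effects were 1.81, 0.80 and 1.45, of which that of Tfec did not pass the test (adjusted p = 0.082). Nfkbiz, an inhibitor protein of the NF-kappaB family, had 1.38 and 1.16 TPM in control embryos and 10.2 and 10.1 TPM in mDKO embryos. In oocytes it had 80.5 and 81.4 TPM in controls against 975 and 992 TPM in mDKO, so the difference was already present before fertilisation. Trpc5os, Serpinb3a and Edn1 also rose at both stages. Gspt2, Kcnn2 and Kbtbd6 completed the 15, and none of these 3 was called in oocytes. Kbtbd6 lost its call without control replicate 1 and without control replicate 2 (adjusted p = 0.062 in each).

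Small RNA entries gave extreme values that a polyA library does not measure well. Mir1892 (chr12:54645933-54646012, GRCm38.p6) was listed at 0 in both controls and at 102 and 70.1 TPM in mDKO, and Mir7653 at 0 in both controls and at 53.0 and 44.6 TPM in mDKO. Mir6992 went the other way, with 40.8 and 15.7 TPM in controls and 0 in both mDKO libraries. Of 15 microRNA entries tested, 3 were higher (20%) and 2 lower (13.3%), beside 5.38% and 8.99% of all genes.

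The 2-cell gene families were lower as families, while 8.99% of all genes tested were lower. All 5 Zscan4 genes tested fell, with a median log2 fold change of -3.23 beside -0.01 over all genes, and each of the 5 calls held without any 1 library. Zscan4 proteins act at telomeres and in the transient 2-cell program. Zscan4f fell from 521 and 778 TPM in controls to 46.0 and 70.1 TPM in mDKO (-3.46 ± 0.24, adjusted p = 0.00013). Zscan4c had 191 and 308 TPM against 17.1 and 36.6 TPM, and Zscan4d had 201 and 309 TPM against 27.4 and 36.5 TPM. The summed TPM of the family was 1073 and 1618 in controls and 106 and 167 in mDKO, so no mDKO library was without the family. Zscan4 copies share long stretches of sequence, and the split of reads between them is uncertain.

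Of 16 predicted genes of the Eif1a-like group and its kin, all of them 2-cell transcripts, 14 fell and none rose (median -2.77), and 12 to 16 were called without 1 library. The share of lower genes in this group was 87.5%, beside 8.99% of all genes. Gm5662 had 266 and 340 TPM in controls and 30.6 and 30.1 TPM in mDKO (-3.27 ± 0.16). Gm2016 had 125 and 171 TPM against 11.2 and 6.07 TPM, the largest fall of the group at -3.99 ± 0.27. All 7 Tcstv genes tested fell (median -1.56), with 3 of 7 called without control replicate 2 and 4 of 7 without control replicate 1. AF067061 had 76.7 and 99.2 TPM in controls and 13.7 and 13.3 TPM in mDKO, while Tcstv1 moved less, from 161 and 194 TPM to 115 and 108 TPM. Of 5 Usp17l genes, which encode ubiquitin proteases, 4 fell (median -1.93), 2 of them called without control replicate 2. Usp17lb had 58.5 and 68.6 TPM against 6.29 and 6.60 TPM (-3.11 ± 0.19). Usp17lc, the fifth, had 22.5 and 31.4 TPM against 9.71 and 17.2 TPM (adjusted p = 0.055). Of the 2 Tdpoz genes tested, Tdpoz5 fell, from 8.80 and 11.9 TPM to 1.73 and 1.97 TPM.

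Single-copy 2-cell genes were split, with 45% of those tested lower, beside 8.99% of all genes. Of 20 tested, 9 fell and none rose (median -0.96), and 6 were called without control replicate 2. Nxt2 and Sult5a1, described above, led, followed by Rfpl4b at 38.5 and 42.8 TPM against 4.85 and 5.89 TPM (-2.71 ± 0.21) and Ubtfl1 at 24.3 and 28.8 TPM against 3.01 and 6.85 TPM. Zfp352 and Spz1 also fell, by 1.60 ± 0.19 and 1.58 ± 0.22. Sp110 had 249 and 225 TPM in controls and 259 and 307 TPM in mDKO, and Arg2 had 289 and 276 TPM against 231 and 287 TPM. Neither passed the test (adjusted p = 0.28 and 0.59), and 2 of the 20 members met the TPM rule through controls alone.

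**Figure D2:**
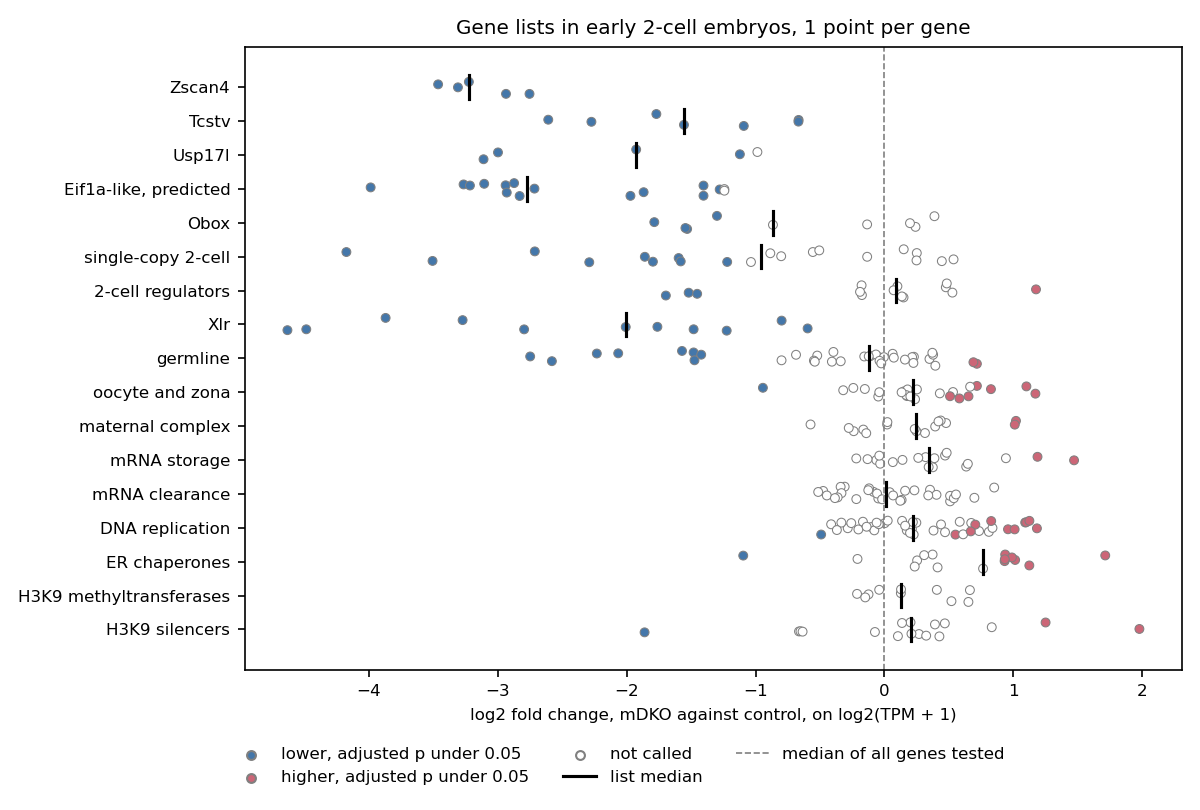
log2 fold change (mDKO against control, on log2(TPM + 1)) of every tested gene of 17 lists, 1 point per gene; filled points were called, black bars are list medians and the dashed line is the median of all genes tested. Zscan4, Tcstv and Xlr hold called lower genes alone, while the ER chaperone list has a median of 0.77.

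Regulators above the 2-cell genes moved in part. Dux, the homeobox activator of Zscan4 and its kin, had 37.6 and 29.6 TPM in controls and 9.70 and 12.5 TPM in mDKO (-1.52 ± 0.22, adjusted p = 0.0036). Dppa2 and Dppa4, which encode partner proteins that act upstream of Dux, also fell. Dppa2 had 152 and 149 TPM against 56.5 and 52.2 TPM (-1.45 ± 0.14), and Dppa4 had 17.9 and 20.2 TPM against 6.31 and 4.21 TPM (-1.70 ± 0.25). In all 3 genes both mDKO libraries lay below both controls, as in 31.3% of all genes. Without control replicate 1 the call of Dux was lost (adjusted p = 0.062), and without control replicate 2 that of Dppa4 (adjusted p = 0.065). L3mbtl2 rose, from 2.15 and 2.09 TPM to 7.29 and 5.004 TPM, a call lost without either control (adjusted p = 0.15 and 0.20). The other 10 of the 14 regulators tested did not pass (list median 0.09). The shares of the list were 21.4% lower and 7.14% higher, beside 8.99% and 5.38% of all genes.

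Obox genes encode homeobox factors made by the oocyte and the 2-cell embryo. Of 9 tested, 4 fell (44.4%, beside 8.99% of all genes) and none rose. Obox4 had 590 and 724 TPM in controls and 228 and 308 TPM in mDKO (-1.30 ± 0.17), and was the only Obox call to hold without control replicate 2. Obox3, Obox6 and Crxos fell by 1.53, 1.79 and 1.54. The summed TPM of all 9 was 19454 and 22274 in controls and 22213 and 23689 in mDKO, so the 4 genes that fell were a small share of Obox RNA. Among 30 transcription factors of genome activation and early lineages, 1 rose (3.33%, beside 5.38% of all genes) and none fell (median 0.02). That gene was Hif1a, at 36.9 and 32.5 TPM in controls and 76.6 and 49.5 TPM in mDKO (adjusted p = 0.044), and its call was lost without either control or mDKO replicate 1 (adjusted p = 0.066 to 0.29).

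The Xlr genes, clustered on the X chromosome, fell throughout: 11 of 11 tested, beside 8.99% of all genes, with a median of -2.01. SYCP3, the autosomal relative in that list, is an axial protein of meiotic chromosomes, and Sycp3 had 337 and 320 TPM in controls and 120 and 114 TPM in mDKO (-1.48 ± 0.13). Xlr3a, the most abundant X-linked member, had 484 and 430 TPM against 175 and 217 TPM (-1.22 ± 0.15). Xlr5b had 37.3 and 35.6 TPM against 4.19 and 4.596 TPM, and in mDKO oocytes it was listed at 0 in both libraries against 9.91 and 11.3 TPM in MII controls. Falls were therefore unequal, from -0.60 for Xlr4c to -4.63 for Xlr3c. Of 10 tested, 8 were called without control replicate 1 and 7 without control replicate 2.

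The X chromosome as a whole held more lower genes than the autosomes. Of 436 X-linked genes, 75 were lower (17.2%) and 24 higher (5.50%). Without the Xlr list 65 of 426 were lower (15.3%), beside 918 of 10660 autosomal genes (8.61%). The medians were -0.12 and -0.0030. The share was also larger on the X in the other comparisons, without the Xlr list. It was 4.64% against 3.29% in MII oocytes, 30.8% against 22.9% at L2C and 25.9% against 19.7% with mCherry. At E2C, X-linked genes without the Xlr list had the larger share in each of 4 classes of MII level. It was 26.3% (31 of 118) against 16.2% under 1 TPM, and 14.2% (20 of 141) against 9.57% at 1 to 10 TPM. It was 8.09% (11 of 136) against 6.45% at 10 to 100 TPM, and 9.68% (only 3 of 31) against 3.62% at 100 TPM and over. The shares of all classes together were 5.33% and 1.80% without control replicate 1, and without control replicate 2 they were 4.604% and 1.55%. No test was made of the difference between chromosomes.

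Lower genes also lay side by side. Along the chromosomes 30 runs of at least 3 neighbouring tested genes were lower, 114 genes in all, and 3 such runs were higher. Lower calls were also more frequent, at 8.99% against 5.38% of all genes, and how many runs that alone gives was not tested. Some of the 114 genes carry the same values as a neighbour. The longest lower run held 8 genes at chr13:119827961-120318261 (GRCm38.p6), AF067063, Tcstv1, B020031M17Rik, Gm21188, Gm20767, AF067061, BC147527 and Tcstv3, with falls of 0.67 to 2.62. A run of 7 on chromosome 12 (chr12:87514316-87896722) held Gm8300, Gm4027, Gm16381, Gm21319, BB287469, Gm2016 and Gm2022, all Eif1a-like genes. Another 7 genes on chromosome 10 carry only 3 distinct rows of values, so they count as 3 measurements. The 5 Zscan4 genes and the Xlr cluster with Pnma5 were runs of 5. Most of the long runs are arrays of related genes, in which shared reads and shared position cannot be told apart. The longest higher run held 4 F-box genes on chromosome 9, Fbxw19, Fbxw15, Fbxw24 and Fbxw18. Fbxw24 had 3522 and 2743 TPM in controls and 4508 and 6426 TPM in mDKO (0.79 ± 0.18), and of the 4 only Fbxw19 kept its call without control replicate 2.

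Among germline genes 21.6% were lower and 5.41% higher, beside 8.99% and 5.38% of all genes. Of 37 tested, 8 fell and 2 rose (median -0.12), and 7 were lower without control replicate 1 and 6 without control replicate 2. Tex12, a synaptonemal complex component, had 221 and 233 TPM in controls and 42.0 and 32.9 TPM in mDKO (-2.58 ± 0.16, adjusted p = 0.00011). Tex101, a germ cell surface gene, had 15.3 and 17.9 TPM against 1.65 and 1.57 TPM. Tex15 and Tex19.1, which act in the control of transposons in germ cells, had 31.0 and 24.7 TPM against 6.27 and 4.12 TPM, and 86.5 and 74.7 TPM against 17.3 and 19.7 TPM. Mael, of the piRNA pathway, fell by 1.47 ± 0.14, while Ddx4, the Vasa helicase, rose by 0.72 ± 0.18. Of 20 imprinted genes tested, 3 fell (15%) and 1 rose (5%), beside 8.99% and 5.38% of all genes (median 0.01). Leaving out control replicate 1 gave 2 lower genes and leaving out control replicate 2 gave 1, with none higher in either. Phlda2, a maternally expressed growth suppressor of the placenta, had 77.0 and 83.1 TPM in controls and 14.9 and 14.5 TPM in mDKO (-2.37 ± 0.17, adjusted p = 0.00017). Its fall was 2.02 already at MII.

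The level of a gene in the oocyte sorted the calls by direction. Of 1894 genes under 1 TPM in control MII oocytes, 17.1% were lower and 3.22% higher. Of 1804 genes at 100 TPM or more, 3.71% were lower and 10.9% higher. The 2 classes between them lay in order, with 9.84% lower and 3.30% higher at 1 to 10 TPM and 6.63% lower and 5.83% higher at 10 to 100 TPM. Medians ran from -0.29 in the lowest class to 0.15 in the highest. Genes that met the TPM rule through the controls alone could only be lower. With genes chosen by the injected mCherry libraries instead, 16.7% were lower and 2.61% higher in the lowest class. In the highest class these shares were 3.46% and 10.3%. Higher calls were also rarer among scarce transcripts: 76 of 4005 genes with a mean under 5 TPM, and 523 of 7135 others. The part of abundance in these shares was not tested. The lowest class had the largest share of lower genes without each of the 4 libraries as well, at 6.32% and 4.99% without control replicate 1 and 2 and at 25.9% and 28.2% without mDKO replicate 1 and 2.

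Calls were also counted by the change that control embryos make after the oocyte. That change was taken from control MII oocytes to control embryos injected with mCherry, on the log2(TPM + 1) scale, so that no library of the comparison defined the classes. Of 1504 genes that rose at least 4-fold, 25.5% were lower in mDKO and 4.92% higher. Of 2329 genes that dropped at least 4-fold, 2.19% were lower and 6.91% higher. In the 3 classes between them (2- to 4-fold drop, within 2-fold, 2- to 4-fold rise) 4.38%, 7.04% and 12.6% were lower, which is in order, and 5.41%, 5.10% and 4.29% higher, which with the end classes is not. Whether the genes that dropped or those that rose at least 4-fold had the larger higher share depended on the library left out. The gap between them was by far the widest without mDKO replicate 2, with the larger share among genes that dropped. No trend in the higher shares is therefore read from these classes. Genes that rose at least 4-fold held 43.5% and 44.6% of all TPM in the controls and 39.7% and 41.0% in mDKO. Without control replicate 1 and 2, 9.26% and 7.91% of the genes that rose at least 4-fold were lower, and without mDKO replicate 1 and 2 the shares were 29.8% and 35.5%. MII libraries were made with another kit than E2C libraries, and how far this moved genes between classes was not tested.

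**Figure D3:**
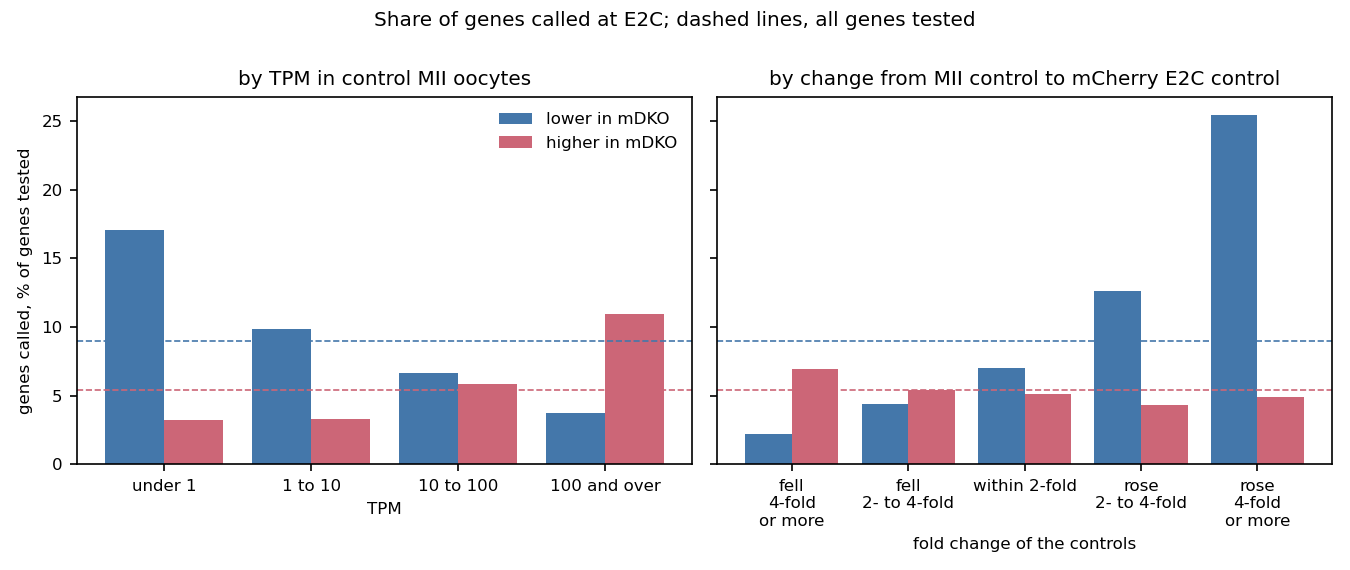
Percentage of tested genes called lower or higher in mDKO early 2-cell embryos, by TPM in control MII oocytes (left) and by the change of controls from MII to mCherry-injected early 2-cell embryos (right); dashed lines give 8.99% and 5.38%, the shares over all genes. Lower calls go from 17.1% to 3.71% with rising oocyte level, and reach 25.5% among genes that rose at least 4-fold.

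Of 24 genes of oocyte identity and the zona, 7 rose (29.2%, beside 5.38% of all genes) and 1 fell (median 0.22). Zp3, a zona protein gene, had 37.1 and 33.6 TPM in controls and 83.3 and 71.1 TPM in mDKO (1.10 ± 0.17, adjusted p = 0.0048), against 707 and 417 TPM in MII controls. Astl, the protease ovastacin, had 9.97 and 8.63 TPM against 27.1 and 18.1 TPM, and Plat, a plasminogen activator, had 58.6 and 50.3 TPM against 95.5 and 98.8 TPM. In MII oocytes the mDKO effects of Zp3, Astl and Plat had the same direction, at 0.70, 0.73 and 0.56. None of them passed the test (limma, adjusted p = 0.056 to 0.17), nor did the differences E2C minus MII (adjusted p = 0.47 to 0.83). Figla, the oocyte factor that drives zona genes, fell, from 5.91 and 5.13 TPM to 2.45 and 2.33 TPM. Without control replicate 1, or without control replicate 2, 1 gene of the list was higher and none lower, and without an mDKO library 9 were higher.

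In the subcortical maternal complex and NLRP list, 2 of 16 rose (12.5%, beside 5.38% of all genes) and none fell (median 0.24). In MII oocytes the mDKO effects of Tle6 and Khdc3 were 0.53 and 0.56, and neither passed the test (limma, adjusted p = 0.15 and 0.38). At E2C Tle6 had 45.7 and 32.4 TPM in controls and 85.4 and 73.6 TPM in mDKO, and Khdc3 had 12.4 and 11.2 TPM against 24.1 and 25.5 TPM. Both calls were lost without control replicate 2 (adjusted p = 0.16 and 0.17), and that of Khdc3 also without control replicate 1 (adjusted p = 0.097). Of 19 genes of maternal mRNA storage 2 rose (10.5%, beside 5.38% of all genes, median 0.34). Zar1, an RNA-binding protein of the oocyte that stores mRNA, had 136 and 109 TPM against 403 and 287 TPM (1.47 ± 0.19, adjusted p = 0.0021), and it kept its call without each library. Igf2bp2, which did not, had 20.1 and 19.098 TPM against 58.4 and 36.1 TPM. Of 30 genes of mRNA clearance, such as deadenylase and decapping subunits, none was called in either direction (median 0.01), and without mDKO replicate 2, 6 were higher and 2 lower.

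Among genes that act on H3K9 methylation, calls were few. None of 10 H3K9 methyltransferases and partners was called (median 0.13), though 4 were higher without mDKO replicate 2, and of 12 other histone demethylases Kdm1b alone rose. Kdm1b, an H3K4 demethylase of the growing oocyte, had 25.96 and 23.8 TPM in controls and 80.4 and 62.0 TPM in mDKO (1.47 ± 0.19, adjusted p = 0.0021). Of 17 H3K9 silencers and HP1 proteins 2 rose (11.8%) and 1 fell (5.88%), beside 5.38% and 8.99% of all genes (median 0.21). Besides Trim28, Mphosph8 of the HUSH complex rose, from 215 and 164 TPM to 535 and 375 TPM (1.25 ± 0.20), with its call lost without control replicate 2 (adjusted p = 0.052). Zfp809, a zinc finger protein that silences retroviruses through KAP1, fell from 33.8 and 34.0 TPM to 8.74 and 8.47 TPM (-1.86 ± 0.19, adjusted p = 0.00083).

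Of 14 DNA methylation genes 2 were higher and 2 lower, a number too small to set against the shares over all genes. Without control replicate 1 or control replicate 2 none was higher and 1 lower. Tet3 and Uhrf1, which oxidise and maintain DNA methylation, had 29.3 and 25.8 TPM against 83.1 and 42.2 TPM, and 53.4 and 43.5 TPM against 126 and 77.7 TPM. Both calls were lost without either control (adjusted p = 0.077 to 0.23), as was that of Gadd45a, which fell (adjusted p = 0.22 and 0.29). Gadd45b fell from 11.8 and 11.1 TPM to 2.41 and 2.54 TPM (-1.84 ± 0.24) and kept its call. Among 22 linker and core histone variant genes 2 rose, H1foo and Atrx, and 2 fell. These are too few to set against the 5.38% higher and 8.99% lower of all genes. Cenpa, the centromeric H3, had 121 and 128 TPM in controls and 52.6 and 57.0 TPM in mDKO (-1.17 ± 0.15), and H2afz had 259 and 269 TPM against 134 and 146 TPM. Of 26 chromatin remodellers 2 rose (7.69%), near the 5.38% of all genes. Smarca5 and Rbbp7 rose by 0.66 ± 0.16 and 0.57 ± 0.12, and neither was called without a control library.

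Chaperones of the endoplasmic reticulum (ER) fold secreted and membrane proteins. Of 15 ER chaperone and ER stress genes 7 rose (46.7%) and 1 fell (6.67%), with a median of 0.77. The shares over all genes were 5.38% and 8.99%. Pdia3, a disulfide isomerase, had 27.2 and 22.8 TPM in controls and 78.4 and 90.0 TPM in mDKO (1.71 ± 0.18, adjusted p = 0.00078). Dnajc3 had 22.5 and 16.6 TPM against 45.5 and 41.3 TPM. The chaperones Hspa5 and Hsp90b1 rose by 1.02 ± 0.17 and 0.94 ± 0.16, and Calr, Pdia4 and Sdf2l1 were also higher. Dnajb9, an ER stress gene, went the other way, from 63.9 and 74.3 TPM to 30.9 and 32.5 TPM (-1.10 ± 0.17). Without control replicate 2 only 1 gene of the list was higher, without control replicate 1 it was 5, and without mDKO replicate 2 it was 11. Of 21 cytosolic chaperones 2 rose (9.52%), Hsp90aa1 and Hsp90ab1, and 3 fell (14.3%), beside 5.38% and 8.99% of all genes. Hspa1b, 1 of the 3 that fell, met the TPM rule through the controls alone and could only be lower. None of the 3 was lower without control replicate 1 or control replicate 2.

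DNA replication factors had 10 genes higher (23.8%) and 1 lower (2.38%) of 42, beside 5.38% and 8.99% of all genes (median 0.22). Mcm4 and Mcm7 of the replicative helicase had 22.6 and 16.6 TPM against 46.7 and 38.6 TPM, and 19.25 and 17.7 TPM against 48.8 and 33.9 TPM. Gins3 and Rrm1 rose by 1.18 ± 0.29 and 1.13 ± 0.25. Gmnn, the inhibitor of origin licensing, fell by 0.49 ± 0.11. This count was not stable: 1 gene was higher without control replicate 1 and 1 without control replicate 2, against 12 and 16 without an mDKO library. Among 39 cell cycle genes 5 fell (12.8%) and 3 rose (7.69%), near the shares over all genes (median 0.09). Leaving out either control gave 1 lower and 1 higher, and leaving out mDKO replicate 2 gave 8 lower and 12 higher. Ccne1, the S-phase cyclin E1, had 18.4 and 14.7 TPM in controls and 3.65 and 3.01 TPM in mDKO (-2.01 ± 0.24, adjusted p = 0.0017). Bub1b, a spindle checkpoint kinase, had 11.3 and 10.6 TPM against 34.6 and 30.9 TPM, far below its mean of 2829 TPM in MII controls. Cdkn1a, the p21 inhibitor, fell from 7.88 and 7.73 TPM to 2.27 and 2.42 TPM, a call lost without either control (adjusted p = 0.090 and 0.10).

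Of 10 NF-kappaB genes 2 rose (20%, beside 5.38% of all genes), Nfkbiz and its relative Nfkbia. Nfkbia had 32.2 and 29.3 TPM in controls and 77.8 and 80.3 TPM in mDKO (1.34 ± 0.16). Of 9 immediate early genes 3 fell (33.3%, beside 8.99% of all genes), all of them low. Atf3 had 5.21 and 2.50 TPM against 0.602 and 0.583 TPM, and Ier2 and Klf10 also fell. Atf3 and Ier2 met the TPM rule through the controls alone and could only be lower. None of 7 tested was lower without control replicate 1 or without control replicate 2. Of 14 metallothionein and zinc genes Mt1 rose and its neighbour Mt2 fell, from 159 and 140 TPM to 84.2 and 87.2 TPM (-0.79 ± 0.14). The call of Mt2 was lost without either control (adjusted p = 0.13 and 0.077). Sumo2 was the only 1 of 18 SUMO pathway genes called.

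In the lists of general machinery 9.09% to 12% of genes were higher and 2.27% to 6% lower, beside 5.38% and 8.99% of all genes. Of 50 ribosome biogenesis genes 6 rose and 3 fell (median 0.24), with Gnl2 at 8.06 and 8.77 TPM against 23.996 and 17.8 TPM. Of 44 translation initiation and rescue factors 4 rose and 1 fell (median 0.03), the latter being Pelo, a ribosome rescue factor, at 9.44 and 7.06 TPM against 2.60 and 1.41 TPM. Pelo was far more reduced in oocytes, from 50.3 and 47.9 TPM to 0.681 and 1.35 TPM. Of 55 genes of RNA polymerase II and general factors 5 rose and 3 fell (median 0.12), and of 31 proteasome subunits 3 rose and 1 fell (median 0.18). Psma7 had 322 and 284 TPM in controls and 611 and 711 TPM in mDKO (1.12 ± 0.13, adjusted p = 0.0016). Without control replicate 1 or control replicate 2 none of the ribosome biogenesis genes was called, and 1 to 2 genes of each other list were, except polymerase II without control replicate 2, where none was.

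Markers of other cells were low and moved with genotype in part. The 20 cumulus and granulosa markers summed to 117 and 113 TPM in controls and 197 and 236 TPM in mDKO. Serpine2 made up most of that sum, at 89.2 and 85.1 TPM against 166 and 202 TPM (1.06 ± 0.15, adjusted p = 0.0034), and MII controls held it at 820 and 882 TPM. Of the 20 markers 14 were under 1 TPM in all 4 libraries, and Amh and Inhbb were at 0 in all. Hsd3b1 and Cyp11a1 are also expressed in granulosa cells, and the part of other cells in their rise was not tested. The 20 sperm markers summed to 124 and 129 TPM in controls and 81.9 and 78.5 TPM in mDKO. Prm2 fell, from 34.9 and 48.3 TPM to 8.998 and 10.7 TPM (-1.96 ± 0.22), while Prm1, Tnp2 and Acr were at 0 in all 4 libraries. The 20 blood markers ranged from 39.8 to 103 TPM in controls and from 13.8 to 279 TPM in mDKO, which overlap. Cd52 alone had 75.4 and 4.74 TPM in controls and 0 and 264 TPM in mDKO. Hba-a1 fell from 10.3 and 17.7 TPM to 0.966 and 0 TPM, while Hbb-bs, Hbb-bt and Alas2 were at 0 in all 4 libraries.

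Lower genes had shorter transcripts. The median transcript length was 1973 bases for the lower genes, 2628 for the higher genes and 3198 for genes not called, with a length for 95.3% of the lower set. In 4 classes of rising length the lower genes made up 16.7%, 16.2%, 7.54% and 4.18%. Among genes under 1 TPM in MII controls, where all transcripts were shorter, the medians were 1810 bases for lower genes and 2031 for genes not called. Genes with 1 or 2 exons made up 22.7% of the lower and 13.04% of the not called genes. Predicted genes with Gm names were lower in 23.3% of 395 cases, beside 8.01% of 9727 ordinary named genes. Whether length itself or the library kit bears on the calls was not tested.

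Changes of the early 2-cell embryo were set against those of the oocyte by testing the difference of the 2 effects over 12 uninjected libraries. Of 14316 genes, 3.88% differed between stages (E2C minus MII, adjusted p under 0.05), 1.72% with a more positive and 2.16% with a more negative effect at E2C. In MII oocytes themselves 0.845% of genes were higher and 3.41% lower. Of the 1001 lower genes, 256 had a more negative effect at E2C than at MII and 11 a more positive one. Of the 599 higher genes, 144 had a more positive effect at E2C and 1 a more negative one. These counts are given as a description, since the genes were chosen by the E2C effect. For 734 of the lower and 454 of the higher genes the difference did not pass the test. Susd3 had almost the same effect at both stages, -4.87 at MII and -4.72 at E2C. Gstp1 fell by 1.68 at MII and by 3.29 at E2C, a difference of -1.61 ± 0.26 (adjusted p = 0.0086). Sumo2 had an effect of -0.04 at MII and of 2.32 at E2C, a difference of 2.36 ± 0.16 (adjusted p = 0.00015). For genes absent from oocytes, such as Zscan4f, the MII effect could not be other than near 0.

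By the late 2-cell stage several of the effects had turned. The difference L2C minus E2C passed the test in 25.7% of 14316 genes, above 0 in 13.2% and below 0 in 12.5%. Of the 1001 lower genes, 494 had a more positive effect at L2C and 8 a more negative one, and of the 599 higher genes 239 had a more negative effect and 43 a more positive one. Zscan4f fell by 3.46 at E2C and was higher by 1.80 at L2C, a difference of 5.26 ± 0.35 (adjusted p = 1.1e-05). Zscan4c and Zscan4d had L2C effects of 1.96 and 1.45. Sumo2, Trim28 and Mt1, higher at E2C, had effects of -1.81, -1.31 and -0.96 at L2C. H1foo and Hnmt were also above the control at L2C, by 2.17 and 2.73, and Susd3 was also below it, by -3.41. Hsd3b1 had 4.06 and 0.0860 TPM in L2C controls and 41.8 and 1.51 TPM in L2C mDKO, which overlap, and did not pass the test there (adjusted p = 0.21).

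**Figure D4:**
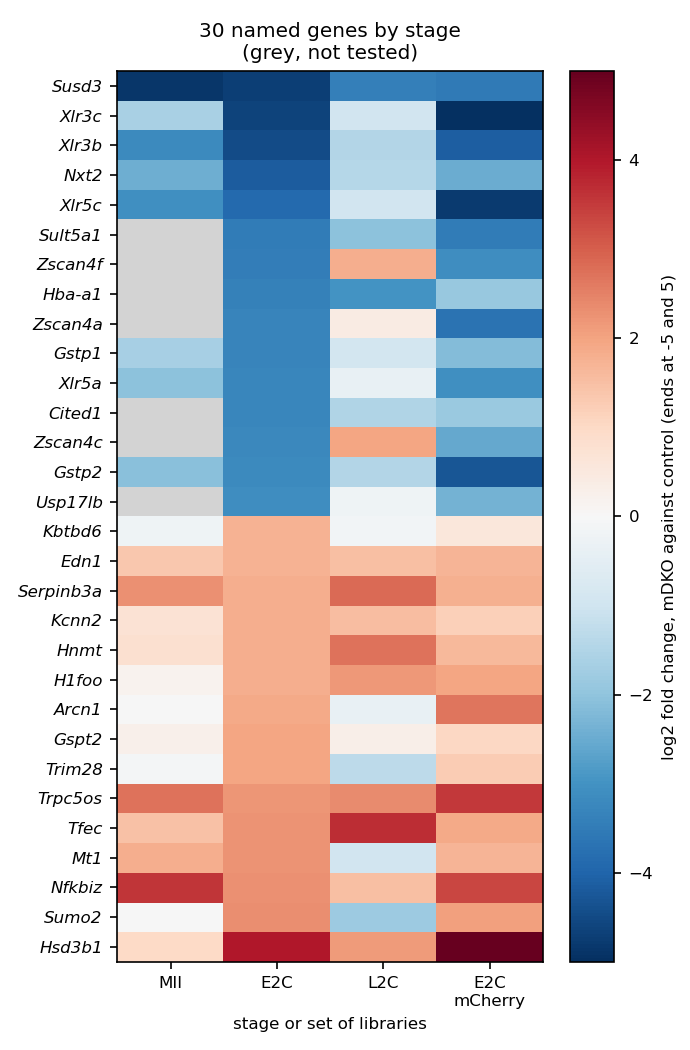
log2 fold change of mDKO against control for the 30 named genes of largest decrease or increase at E2C, in MII oocytes, E2C, L2C and mCherry-injected E2C; colour gives the value, cut at -5 and 5, and grey marks genes not tested. Susd3 is low in every column, whereas Zscan4f turns from -3.46 at E2C to 1.80 at L2C.

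The same genotype contrast in embryos injected with mCherry used 4 other libraries. There 46.9% of 10960 genes were called, 26.9% higher and 20.0% lower, in a fit over all 8 injected libraries. Of the 663 genes lower by at least 2-fold without injection, 594 were tested and 401 of these were lower again, while 30 were higher. Of the 273 genes higher by at least 2-fold, 256 were tested, 199 were higher again and 1 was lower. The medians in the injected embryos were -1.01 and 1.02, beside 0.03 over the 10424 genes tested in both. Of all calls without injection that were tested in both, 64.3% of the lower and 66.1% of the higher were called in the same direction with mCherry, and these made up 27.8% and 14.1% of the mCherry calls. Zscan4f fell by 3.09 and Xlr3c by 6.22 in the injected embryos, and Hsd3b1 rose by 6.33 and Sumo2 by 2.07. Dux fell by 0.46 there (adjusted p = 0.023), less than without injection.

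Some calls did not recur. Gadd45b had an effect of -0.11 (adjusted p = 0.76) with mCherry, Ccne1 of 0.76 (adjusted p = 0.13) and Cenpa of 0.25 (adjusted p = 0.34). Dnajb9, lower without injection, had 0.37 (adjusted p = 0.098), and Cdk4, also lower without injection, was higher by 1.41 (adjusted p = 0.014). Gadd45a, lower without injection, had 1.10 (adjusted p = 0.0070), and Atrx, higher without injection, had -0.50 (adjusted p = 0.042). Tet3 and Uhrf1 had 0.19 and 0.01 (adjusted p = 0.35 and 0.98). Of 924 lower genes tested with mCherry, 64 were higher there, and of 581 higher genes, 11 were lower. In the 2-cell families all 5 Zscan4, all 7 Tcstv and all 5 Usp17l genes tested were lower with mCherry. Of 11 Xlr genes 10 were lower, and of 24 oocyte and zona genes 12 were higher and 3 lower. The difference between injected and uninjected effects was not tested.

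**Figure D5:**
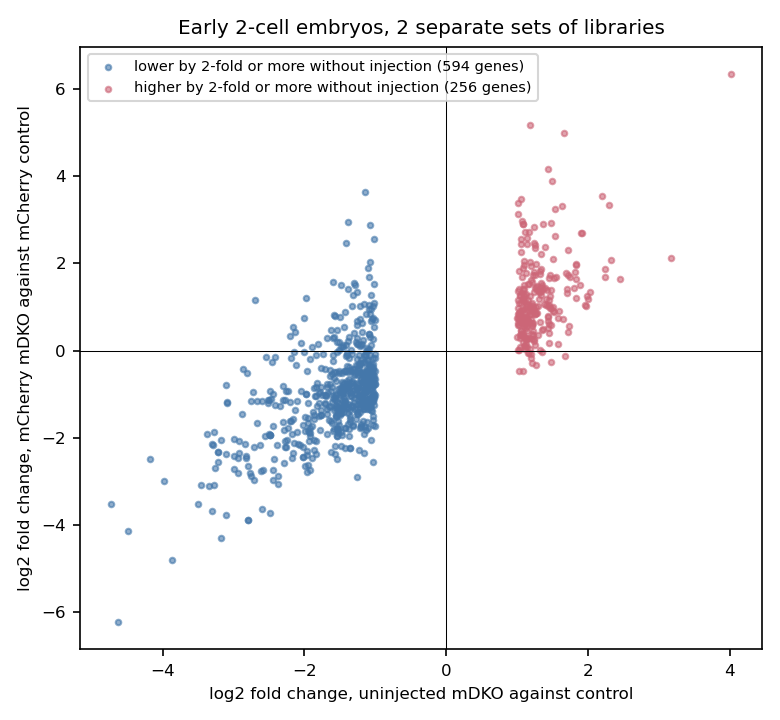
Effect of mDKO in mCherry-injected embryos (vertical axis) against that in uninjected embryos (horizontal axis), as log2 fold changes, for the genes called lower (594 genes) or higher (256 genes) by at least 2-fold without injection and tested in both. Most points lie at the lower left and upper right: 511 of 594 lower genes are below 0 with mCherry, and 245 of 256 higher genes are above 0.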

How the data were processed

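RNA-seq of polyA RNA was deposited by the authors as TPM, 1 column per library. TPM shares out a fixed total after correction for transcript length, so it is not a count, and no count test was run. The labels' protocols give the TruSeq Stranded mRNA kit for MII oocytes, and either SMART-Seq mRNA LP or the v4 kit of SMART-Seq for E2C embryos. Tools in the submitters' processing notes are RSEM 1.3.1, STAR 2.7.10b, SAMtools 1.9 and Bowtie2 2.3.4.1, with mm10 as build. Their roles, the annotation, the strandedness and the kit of each E2C library are not stated. A group's replicates are 2 pools.

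Log2(TPM + 1) values were tested in R 4.3.3 with limma 3.58.1 (empirical Bayes with a mean-variance trend), with two-sided p-values, Benjamini-Hochberg adjustment over all genes tested and calls at an adjusted p under 0.05. The E2C fit used 4 libraries. Stage differences were interaction contrasts over 12 uninjected libraries, and the mCherry contrast came from 1 fit of the 8 injected E2C libraries. Values after ± are standard errors. The pseudocount of 1 understates changes of low genes. The script was tested on simulated data. Of the deposited columns, 0 were left without a sample. Of 11140 members, 11098 matched RefSeq by symbol, which gave coordinates on GRCm38.p6, the assembly of mm10. Lengths came from GENCODE M21 transcripts.

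The members, the gene lists and the rules were chosen with earlier results of these data known. Named genes were the targeted genes with Jmjd1c, the 15 largest called changes in each direction at a mean TPM of at least 5 (3 more among predicted, clone and small RNA names), up to 4 called members per list, members of lists of 6 or fewer, and the longest runs of neighbours. Other list members, such as Sycp3, Mael, Ddx4, Hspa5, Hsp90b1, Hsp90aa1, Gmnn, Sp110, Arg2 and Cd52, were named after their values were seen. Lists are described by counts and medians, with no test. Alternatives were a pseudocount of 0.1, other filters, size factors, a replicate block, all 12 uninjected libraries and leaving out each library. Mitochondrially encoded transcripts were not analysed here, nor were the Kdm3a-injected embryos. The list of steroid and cholesterol synthesis genes is not reported here.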

Additional observations from a re-analysis of the deposited data

Results flagged for a closer look

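The difference of the mDKO effect between 2 stages was tested as an interaction in limma over 12 uninjected libraries, for 32 genes: the targeted genes and the most changed named genes. It passed (adjusted p under 0.05) for 19 genes between E2C and MII and for 21 genes between L2C and E2C. Values are differences of log2 fold changes. The genes were chosen by their E2C effect, so a difference from another stage in the direction of that effect is partly built in. Groups of 2 libraries allow no test for a single library that stands apart.

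A more negative effect at E2C than at MII was measured in 11 genes, 10 of them lower at E2C. The other, Nfkbiz, was higher in mDKO at both stages. The differences were -1.29 for Nfkbiz, -1.73 for Nxt2, -2.60 for Sult5a1, -3.37 for Zscan4f, -3.38 for Hba-a1, -3.31 for Zscan4a, -1.61 for Gstp1, -1.22 for Xlr5a, -3.06 for Cited1, -2.99 for Zscan4c and -3.11 for Usp17lb. Zscan4f, Hba-a1, Zscan4a, Cited1, Zscan4c and Usp17lb were under 1 TPM in every MII library, too low for a fall to show there. Their differences largely restate the E2C effect.

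A more positive effect at E2C than at MII was found mostly in genes that were higher at E2C. These differences were 1.40 for Kdm3a, 2.36 for Sumo2, 2.09 for Trim28, 1.71 for Gspt2, 1.94 for Arcn1, 1.67 for H1foo, 1.04 for Hnmt and 1.92 for Kbtbd6. Kdm3a was reduced at both stages, and less in embryos, where control levels were low.

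Between L2C and E2C the effect turned upward in genes that had been lower at E2C, and further upward in Tfec and Hnmt. The differences were 1.46 for Tfec, 0.90 for Hnmt, 3.68 for Xlr3c, 3.01 for Xlr3b, 2.75 for Nxt2, 2.90 for Xlr5c, 5.26 for Zscan4f, 3.72 for Zscan4a, 2.35 for Gstp1, 2.90 for Xlr5a, 1.78 for Cited1, 5.18 for Zscan4c, 1.71 for Gstp2 and 2.88 for Usp17lb.

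The effect was smaller or opposite at L2C in genes that had been higher at E2C. These differences were -4.13 for Sumo2, -0.80 for Nfkbiz, -3.20 for Mt1, -3.29 for Trim28, -1.68 for Gspt2, -2.27 for Arcn1 and -1.88 for Kbtbd6. Among them Sumo2, Trim28 and Mt1 were below the control at L2C.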

How the results depend on the processing

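The count of called genes, 1600 (599 higher and 1001 lower), was within 1.5 times under a pseudocount of 0.1, size factors, a mean TPM filter, a filter set by the mCherry libraries and a fit of all 12 uninjected libraries. With no filter on low TPM it was 409 (130 higher and 279 lower). Leaving out 1 library gave 282 to 3214 calls, 96 to 1623 higher and 186 to 1591 lower, fewer without a control and more without an mDKO library; the cause was not tested. With the replicate number as a block 2560 genes were called, 1077 of them higher and 1483 lower, and the 1600 genes were all among them. Same-numbered E2C libraries did not deviate together (correlation of deviations -0.0187), so the numbers were not taken to pair the samples. The 555 genes that differed between E2C and MII became 351 with a pseudocount of 0.1 and 216 to 839 without 1 library. The 5141 calls of the mCherry contrast became 3117 to 4026 without 1 library. The 3678 differences between L2C and E2C stayed within 1.5 times throughout. Of 155 named genes that were called, 79 kept their call without control replicate 2, 98 without control replicate 1, 91 with no filter and 155 with the replicate block. None changed direction in any of these settings. Depth is unknown, so the counting error of low genes cannot be given.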
